A study of Mus musculus with 6 samples.

Results

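The transcripts of 5 receptor chains that read alarmin and interleukin-12 signals in innate lymphoid cells (ILCs) were followed through early T-cell progenitors of WT and ΔTE mice. The genes were Il18r1 and Il18rap, which encode the 2 chains of the interleukin (IL)-18 receptor, Il1rl1, which encodes the IL-33 receptor ST2, Il17rb, which encodes the ligand-binding chain of the IL-25 receptor, and Il12rb2, which encodes the signalling chain of the IL-12 receptor. They were taken by symbol, as 5 of the 28048 genes listed for these libraries, with earlier results of these data known. WT mice were C57BL/6 mice homozygous for a Bcl11b-YFP reporter allele, and ΔTE mice carried the same reporter with a deletion of the timing enhancer of Bcl11b on both copies. In both genotypes, CD117-enriched bone marrow progenitors, pooled from 6 to 8 mice of both sexes aged 2 to 4 months, were grown on OP9-DL1 stromal cells, a mouse line that presents the Notch ligand DL1, with Flt3-L and IL-7. For the experiments that generate NK cells and ILCs, among which the study's methods count this one, IL-2, IL-15 and SCF were added for both genotypes. All sorted cells were CD44+. DN1 cells lacked CD25, DN2a cells carried CD25 without the Bcl11b reporter, and DN2b cells carried both, and each population was grown again on OP9-DL1 for 4 days before single-cell RNA-seq. These populations were made in culture and were sorted 4 days before the measurement, so that a start names the population that went in and not the stage of each cell at harvest.

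IL-18, IL-33 and IL-25 are called alarmins because epithelial and other tissue cells release them on damage. The IL-18 and IL-33 receptors belong to the IL-1 receptor family and pass their signal through Myd88 and the IRAK kinases to NF-kB, whereas the IL-25 receptor belongs to the IL-17 receptor family and signals through Traf3ip2 (Act1). IL-12 acts through Jak2, Tyk2 and Stat4. IL-33 and IL-25 are best known as activators of ILC2s, and IL-12 and IL-18 as activators of NK cells and ILC1s, although IL-18 receptor chains are also carried by early ILC progenitors and by some ILC2s.

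Each of the 6 combinations of genotype and start was 1 library, so that no test within a start could be made. A fit of genotype over the 3 starts, which would take one genotype effect for all of them, was not run, and the intervals given here are 95% exact intervals of counting error only. The libraries held 3401 to 19489 cells after filtering and 1715982 to 9041255 unique molecular identifiers (UMIs). Levels are UMIs of a gene summed over the cells of a library, per 1000000 UMIs of that library (CPM), and in such sums fewer cells with a transcript and fewer transcripts per cell cannot be told apart. Each library came from 3 reverse-transcription wells, technical parts of 1 culture, which are used only to show the spread. The WT DN2a library stood apart, with a median of 13.3% mitochondrial UMIs per cell against 20.9% to 23.9% in the others. Across all genes tested, the ΔTE to WT ratio had a median (log2) of -0.0041, -0.15 and -0.023 in the DN1, DN2a and DN2b pairs of libraries, and the ratios of the receptors are to be read relative to these shifts. Bcl11b, the gene whose enhancer was deleted, was lower in ΔTE in every start, by 1.39, 1.06 and 0.67 on the log2 scale (235 against 89.4, 535 against 257 and 856 against 540 CPM in WT and ΔTE). The UMIs of 12 genes of stromal cells summed to 573, 2424 and 849 CPM in the WT DN1, DN2a and DN2b libraries and to 334, 1540 and 417 CPM in the ΔTE libraries. Cells with stroma markers held 2.24%, 1.81%, 2.29% and 2.05% of the UMIs of Il18r1, Il18rap, Il17rb and Il12rb2, and more of those of Il1rl1, as given below. Their own UMIs count in the totals behind CPM, in unlike parts for the 2 DN2a libraries. They were 1221413 of 9041255 UMIs in WT DN2a and 521067 of 6315835 in ΔTE DN2a.

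In RefSeq (GRCm38.p6), all 5 genes had at least 1 annotated start in the table of promoters. The sequences before 3 of these starts are shown because they belong to the receptor chains that were higher in ΔTE cells, both IL-18 receptor chains and the IL-25 receptor chain. For Il18r1, which had 3 annotated starts, the first is shown. They run 5′ to 3′ on the strand of the gene and end at the base before the start, and capitals mark GATAA, a core that GATA factors recognise, searched on both strands. The Il18r1 and Il17rb sequences stop where the neighbouring gene, Il1rl1 or Chdh, begins or ends.
Il18r1 (chr1:40465416-40465551, + strand): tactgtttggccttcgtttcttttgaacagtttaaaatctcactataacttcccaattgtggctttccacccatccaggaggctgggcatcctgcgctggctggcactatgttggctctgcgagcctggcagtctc
Il18rap (chr1:40515112-40515361, + strand): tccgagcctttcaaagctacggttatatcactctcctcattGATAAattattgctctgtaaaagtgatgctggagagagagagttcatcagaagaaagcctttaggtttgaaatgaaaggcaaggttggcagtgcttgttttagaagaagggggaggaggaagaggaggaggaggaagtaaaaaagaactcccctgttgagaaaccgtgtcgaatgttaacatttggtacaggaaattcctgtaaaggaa
Il17rb (chr14:30008897-30009022, - strand): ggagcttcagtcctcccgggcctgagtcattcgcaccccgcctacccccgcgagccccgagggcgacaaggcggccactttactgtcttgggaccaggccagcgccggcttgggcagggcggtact
GATAA on either strand lay in 22.6% of the 32851 promoter windows of 250 bases in the table, and TGTGGT, a core that RUNX factors recognise, in 14.0%. Il18rap held 1 GATAA and no TGTGGT. The windows of Il18r1 (all 3 starts), Il17rb and Il12rb2 held neither motif. Il1rl1 had 2 annotated starts, with 2 GATAA before the first and 1 GATAA and 1 TGTGGT before the second. Such a match describes the letters of a window and not a bound site.

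The ligand-binding chain of the IL-18 receptor, Il18r1, showed the widest gap between the genotypes among the 5 genes. Its level was 5.68 CPM (34 UMIs), 11.8 CPM (107 UMIs) and 10.6 CPM (29 UMIs) in WT cells of the DN1, DN2a and DN2b starts. In ΔTE cells it was 6.62 CPM (39 UMIs), 20.9 CPM (132 UMIs) and 35.5 CPM (61 UMIs). The genotypes lay close together for the DN1 start and apart for both DN2 starts. The ratio of ΔTE to WT was 1.17-fold for DN1 (log2 0.22, interval -0.48 to 0.93), 1.77-fold for DN2a (log2 0.82, 0.44 to 1.20) and 3.35-fold for DN2b (log2 1.74, 1.08 to 2.43). In the DN2b start, WT wells ranged from 7.05 to 13.4 CPM and ΔTE wells from 20.9 to 44.3 CPM, with no overlap. The WT and ΔTE wells did not overlap for DN2a either, at 9.67 to 14.5 and 15.5 to 25.6 CPM. For DN1 they did, at 5.25 to 6.66 and 4.55 to 7.86 CPM. The lowest ΔTE DN2a well, at 15.5 CPM, was also the well with the most stromal transcripts (4030 CPM, against 612 and 411 CPM in the other 2 wells). The DN2b ratio was smaller, and its interval reached 0, when cells with over 20% mitochondrial UMIs were left out, at 1.04 (-0.095 to 2.17) on 15 UMIs of each genotype.

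Il18rap, the accessory chain that IL-18 needs to signal, differed in the same direction by less. It stood at 40.7, 37.2 and 27.1 CPM in WT cells (244, 336 and 74 UMIs) and at 44.4, 49.7 and 55.9 CPM in ΔTE cells (262, 314 and 96 UMIs) of the DN1, DN2a and DN2b starts. The WT DN2b library was the lowest of the 6 and the ΔTE DN2b library the highest. The ratios were 1.09-fold for DN1 (log2 0.13, -0.13 to 0.38), 1.34-fold for DN2a (log2 0.42, 0.19 to 0.65) and 2.06-fold for DN2b (log2 1.05, 0.59 to 1.5). In the DN2b start, every ΔTE well (52.9 to 60.2 CPM) lay above every WT well (24.6 to 31.6 CPM). The same held for DN2a, at 47.1 to 50.9 against 33.4 to 41.5 CPM, but with all cells kept whatever their mitochondrial share, the log2 ratio for DN2a was 0.15 (-0.066 to 0.36).

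**Figure D1:**
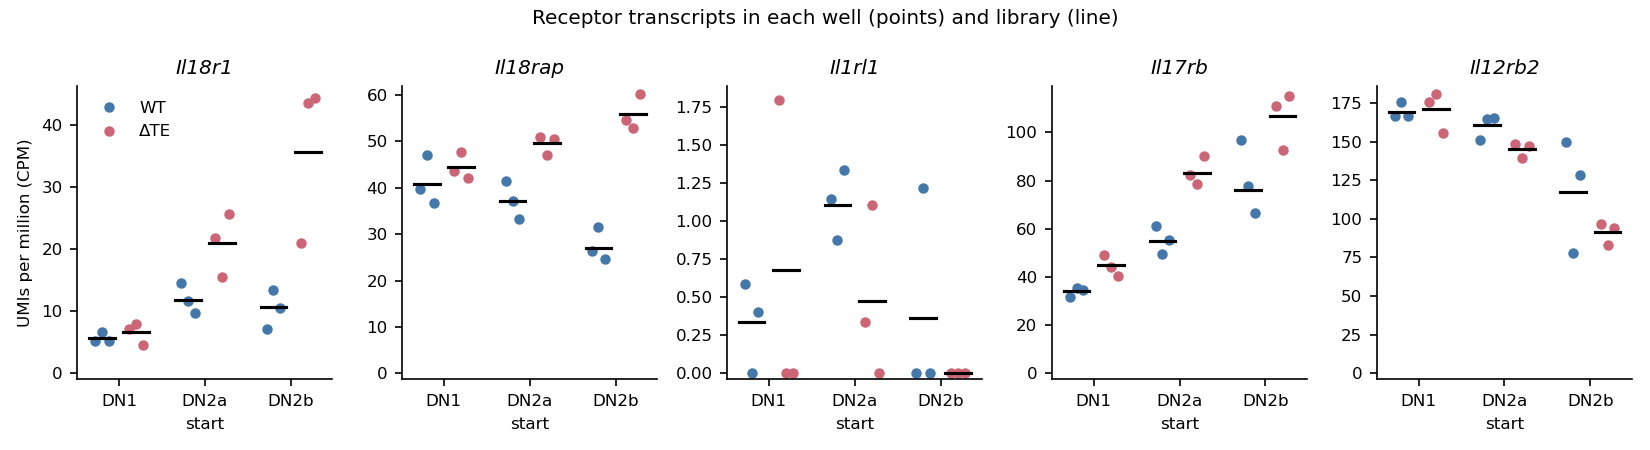
Levels of the 5 receptor genes in CPM (vertical axis, a separate scale for each gene) for the DN1, DN2a and DN2b starts. Points are the 3 wells of a library and black lines the library; ΔTE wells of Il18r1 and Il18rap lie above all WT wells for both DN2 starts, and Il1rl1 rests on 0 to 4 UMIs a well.

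The IL-33 receptor gene Il1rl1 was close to undetected. It had 2, 10 and 1 UMIs in the WT libraries and 4, 3 and 0 in the ΔTE libraries, in the order of the starts, and 20 UMIs in 19 cells in all. A count of 0 in the ΔTE DN2b library allows up to 1.75 CPM. Of the 20 UMIs, 11 lay in cells with stroma markers, 4 in cells assigned by a mast cell and basophil list, 4 in cells of no class and 1 in a cell with ILC or NK markers. The 4 UMIs of the ΔTE DN1 library came from 3 cells of a single well. With so few UMIs, no difference between genotypes was detectable, and at gene level the soluble and membrane forms of ST2 cannot be separated.

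Il17rb, the IL-25 receptor chain, was higher in ΔTE cells of all 3 starts, by similar amounts. Its ratio lay above those of both IL-18 receptor chains for DN1, between them for DN2a and below both for DN2b. These differences between genes were not tested. WT cells had 34.1, 54.9 and 76.2 CPM (204, 496 and 208 UMIs) and ΔTE cells 44.8, 83.3 and 107 CPM (264, 526 and 183 UMIs) of the DN1, DN2a and DN2b starts. The ratios were 1.32-fold (log2 0.40, 0.13 to 0.67), 1.52-fold (log2 0.60, 0.42 to 0.78) and 1.40-fold (log2 0.49, 0.19 to 0.78). None reached 2-fold, and all 3 intervals lay above 0. Wells of the genotypes did not overlap for DN1 (31.6 to 35.5 CPM in WT and 40.3 to 49.0 CPM in ΔTE) or DN2a (49.7 to 61.0 and 78.6 to 90.3 CPM), whereas for DN2b they did, at 66.4 to 97.0 and 92.5 to 115 CPM.

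Il12rb2, which IL-12 needs to activate Stat4, did not rise in ΔTE cells. Its level was 169, 161 and 118 CPM in WT cells (1014, 1456 and 321 UMIs) and 171, 146 and 91.5 CPM in ΔTE cells (1010, 919 and 157 UMIs). The DN1 libraries were alike, with a log2 ratio of 0.018 (-0.11 to 0.14). For DN2b the ratio was -0.36 (-0.65 to -0.082), although the wells overlapped, at 77.8 to 150 CPM in WT and 83.1 to 96.5 CPM in ΔTE. For DN2a it was -0.15 (-0.27 to -0.026), near the median of all genes, and no direction is given, since it was -0.013 under TMM scaling and 0.085 in UMIs per cell.

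With at least 20 UMIs over a pair of libraries asked for, 4 of the 5 genes were compared in each start, and a fold of 2 served in place of a test. For the DN1 start 0 of 4 were at least 2-fold higher and 0 lower in ΔTE, where 0.821% and 1.69% of 11450 genes were. For the DN2a start these counts were again 0 and 0, beside 1.10% and 4.00% of 12214 genes. In the DN2b start 2 of 4, Il18r1 and Il18rap, were at least 2-fold higher and 0 lower, where 1.74% and 3.64% of 10073 genes were. Il18rap fell under 2-fold there with the 20% mitochondrial limit (log2 0.69, -0.18 to 1.55) and with no such limit (0.74, 0.36 to 1.12). By wells, every ΔTE well lay above every WT well for 1 of 4 receptor genes in DN1 (8.24% of all genes), 3 of 4 in DN2a (2.90%) and 2 of 4 in DN2b (7.71%). Every ΔTE well lay below every WT well for 0 of 4 in DN1 (8.24%), 1 of 4 in DN2a, Il12rb2 (16.2%), and 0 of 4 in DN2b (9.31%). The median log2 ratio of the 4 genes was 0.17, 0.51 and 0.77 for the DN1, DN2a and DN2b starts.

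**Figure D2:**
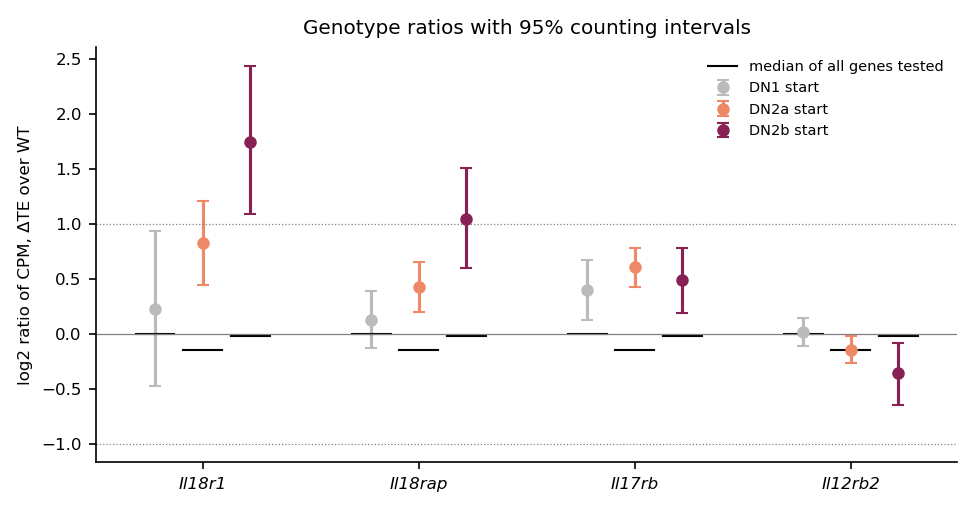
Log2 ratio of CPM in ΔTE over WT (vertical axis) for the 4 receptor genes with at least 20 UMIs, by start. Points are ratios, bars 95% counting intervals, short black lines the median of all genes tested in that start and dotted lines 2-fold; both IL-18 receptor chains pass 2-fold for the DN2b start, at 1.74 and 1.05.

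Between starts, the receptors moved apart. From DN1 to DN2b, Il17rb was 2.24-fold higher in WT and 2.38-fold higher in ΔTE cells, with log2 ratios of 1.16 (0.88 to 1.45) and 1.25 (0.97 to 1.53). Il12rb2 was lower in both genotypes, by 0.53 on the log2 scale in WT (interval -0.71 to -0.34) and 0.91 in ΔTE (interval -1.16 to -0.66). Il18r1 was 1.87-fold higher in WT (log2 0.90, 0.14 to 1.66) and 5.37-fold higher in ΔTE (log2 2.43, 1.82 to 3.04). Il18rap fell by 0.59 on the log2 scale in WT (interval -0.98 to -0.21) and had a log2 ratio of 0.33 (-0.021 to 0.67) in ΔTE. The DN2a and DN2b levels of Il18r1 did not separate in WT (log2 -0.16, -0.80 to 0.45) and did in ΔTE (log2 0.77, 0.30 to 1.21); the difference between the genotypes in this step was not tested. By CPM, Il12rb2 was the highest of the receptors in every library but ΔTE DN2b, where Il17rb was (107 against 91.5 CPM). Per kilobase of annotated gene span, Il17rb was highest in all 6 libraries, at 2.67 to 8.36 CPM per kilobase. Il12rb2 (1.08 to 2.02) and Il18rap (0.746 to 1.54) were above Il18r1 (0.161 to 1.01) in all 6. The spans of Il17rb and Il12rb2 were 12.8 and 84.9 kilobases, and whether counts scale with span was not tested.

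To see which cells carried the transcripts, cells were assigned to the marker list from which they held the most UMIs, if at least 2. The ILC or NK list, which held 21 genes and none of the receptors, gave 2.49%, 3.36% and 5.68% of WT cells and 2.74%, 4.42% and 9.67% of ΔTE cells of the DN1, DN2a and DN2b starts. Xcl1, Ncr1, Il2rb and Icos led these cells by fold, but all 4 are on the list that picked the cells, so their lead follows from that choice. Nkg7, which many progenitors express, gave 45.9% of the marker UMIs of these cells. The class is therefore described by its markers and not named as a cell type. In its 2332 cells Il18r1 stood at 62.6 CPM (95 UMIs), against 10.2 CPM (307 UMIs) in all other cells, a log2 ratio of 2.62 (2.27 to 2.96). Il18rap stood at 79.8 against 39.9 CPM (log2 1.00, 0.72 to 1.27). Il17rb, at 75.8 against 58.5 CPM, was nearly even (log2 0.37, 0.088 to 0.65), as was Il12rb2 at 137 against 155 CPM (log2 -0.17, -0.38 to 0.026). Library by library, the ratios of Il18r1 (log2 1.68 to 2.94) and Il18rap (0.76 to 2.02) had intervals above 0 in all 4 DN2 libraries, which for Il17rb held in the WT DN2b library alone. In the 2 DN1 libraries no receptor's interval did. Without Nkg7 in the list, a choice made after seeing the data, 958 cells were left and the ratio of Il18r1 was 3.75 (3.38 to 4.10), of Il18rap 1.67 (1.32 to 2.01) and of Il12rb2 -0.46 (-0.83 to -0.11). Even so, cells with ILC or NK markers held only 23.6% of Il18r1 UMIs and 9.13% of Il18rap UMIs, and most of the rest lay in cells of no class.

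A UMI of Il18r1 was found in 3.47% (2.77% to 4.30%) of cells with ILC or NK markers, whose median depth was 560 UMIs. In cells with stroma markers, which should lack the receptor, the share was 0.261% (0.119% to 0.495%) at a median of 538 UMIs. The stroma shares of Il18rap, Il17rb and Il12rb2 were 0.638%, 1.13% and 2.67% and were read as background. After each cell was thinned to 300 UMIs, Il18r1 was found in 0.155%, 0.339% and 0.317% of WT cells and in 0.183%, 0.662% and 1.22% of ΔTE cells of the DN1, DN2a and DN2b starts, and before thinning in 0.302%, 0.528% and 0.543% and in 0.350%, 1.06% and 1.62%. Before thinning, as the stroma share was taken, the intervals of both DN1 shares and both WT DN2 shares overlapped that of the stroma cells. Those of ΔTE DN2a (0.882% to 1.26%) and ΔTE DN2b (1.22% to 2.10%) lay above it. This stroma share joins 6 libraries, and within the DN2a libraries the reading was reversed. In WT DN2a the stroma share was 0.103% (0.012% to 0.371%), below the library share (0.432% to 0.641%). In ΔTE DN2a it was 0.660% (0.215% to 1.53%) and overlapped the library share. For ΔTE DN2b, 61 stroma cells held 0 UMIs, with an upper limit of 5.87%. No genotype difference relative to background is read from these shares. Thinning left out 1266, 4723 and 555 WT and 1010, 1471 and 462 ΔTE cells that were shallower.

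Within the class, cells were split by which genes of the list gave them more UMIs. The ILC2 genes were Icos, Rora, Klrg1, Nmur1, Arg1, Il5 and Il13, and the others were taken as NK and ILC1 genes. The 193 cells with as many of each were left aside. The sides are named by these genes and are not cell types. Nkg7 and Cd160 gave 45.9% and 21.0% of the marker UMIs of the class. Rora gave 896 UMIs and Icos 338, against 14 for Il13 and 0 for Il5. Whether the NK or ILC1 side holds progenitors with Nkg7 was not tested. In the 340 cells on the ILC2 side, Il18r1 reached 156 CPM (106 to 222), Il18rap 196 CPM (140 to 269) and Il17rb 161 CPM (110 to 228), each above the 46.6, 60.7 and 58.2 CPM of the 1799 cells on the NK or ILC1 side. Il12rb2 ran the other way, at 75.6 CPM (42.3 to 125) on the ILC2 side and 156 CPM (134 to 179) on the NK or ILC1 side. These are sums over libraries that make up the sides unequally, since the DN2b libraries gave 86 WT and 101 ΔTE cells of the ILC2 side and 168 and 189 of the other. In ΔTE DN2a cells alone, Il12rb2 was even (135 and 137 CPM) and Il17rb was at 89.8 CPM (4 UMIs) on the ILC2 side and 100.4 CPM (25 UMIs) on the NK or ILC1 side. Il1rl1 had 0 UMIs on either side. Outside the class, Il18r1 was at 1.80 CPM (0.045 to 10.0, 1 UMI) in the 876 cells with myeloid markers. Of these, 435 WT and 336 ΔTE cells were of the DN1 start. Il12rb2 was highest, at 202 CPM (183 to 223), in the cells that the mast cell and basophil list gave. That list alone does not mark mast cells here, since 97.3% of its UMIs were Cpa3, which early progenitors also express. Mcpt1, a mast cell protease gene outside the list, led these cells by fold, with 46 UMIs in them and 9 elsewhere. Whether some of them were mast cells was not tested. In T-marker cells Il18rap stood at 29.1 CPM and Il17rb at 75.6 CPM.

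**Figure D3:**
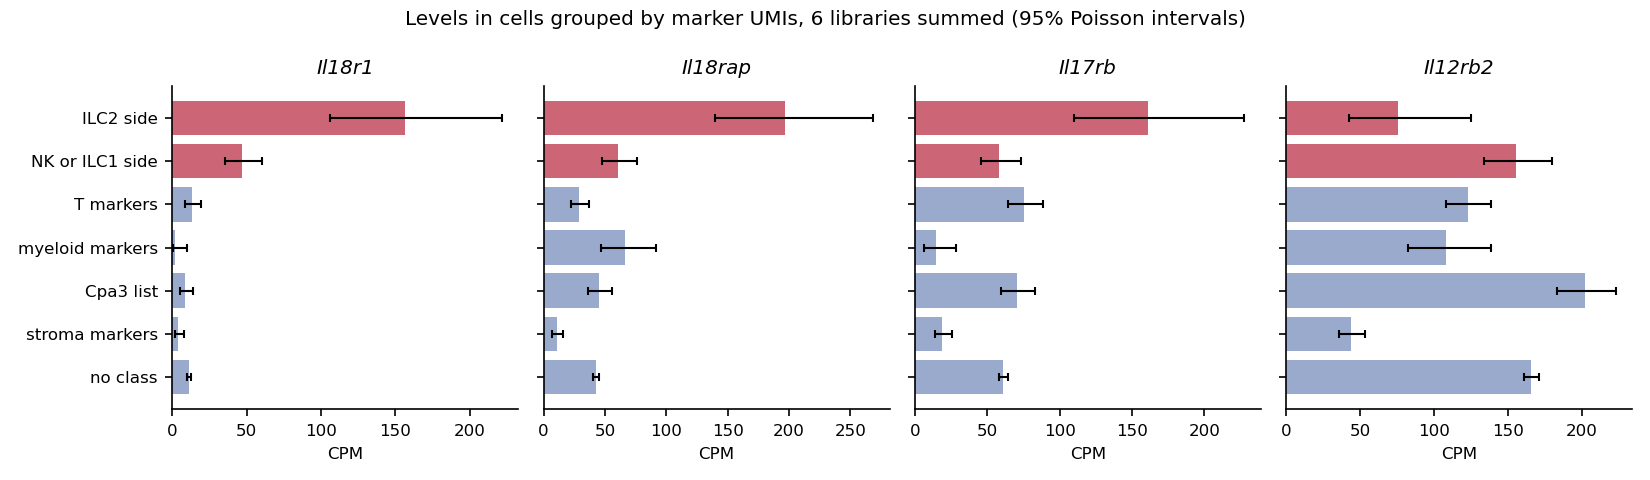
CPM of 4 receptor genes (horizontal axes, a separate scale for each) in cells grouped by marker UMIs, with the 6 libraries summed. Bars are levels, lines 95% Poisson intervals, and red the cells with ILC or NK markers, split by side; Il18r1, Il18rap and Il17rb are highest on the ILC2 side (156, 196 and 161 CPM) and Il12rb2 is not.

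The genotype gap of Il18r1 was present both inside and outside these cells. In cells with ILC or NK markers of the DN2a start it was 34.7 CPM (13 UMIs) in WT and 119 CPM (39 UMIs) in ΔTE, a log2 ratio of 1.78 (0.84 to 2.81). In those of the DN2b start it was 39.9 CPM (8 UMIs) and 153 CPM (29 UMIs), a log2 ratio of 1.93 (0.77 to 3.27). In all other cells the ratios were smaller, 0.52 (0.089 to 0.95) for DN2a and 1.34 (0.50 to 2.20) for DN2b, but still above 0. Whether the ratios inside and outside differ was not tested. Most of the other cells were of no class, with ratios of 0.50 (0.022 to 0.98) and 1.62 (0.65 to 2.66). ILCs or NK cells with under 2 marker UMIs would be among them. In T-marker cells the intervals held 0, at 0.24 (-1.27 to 1.69) on 11 and 8 UMIs for DN2a and -0.30 (-3.69 to 2.32) on 5 and 2 UMIs for DN2b. Il18rap in all other cells had ratios of 0.38 (0.15 to 0.62) and 1.05 (0.52 to 1.58). Inside the class its intervals held 0, at 0.67 (-0.15 to 1.51) and 0.61 (-0.32 to 1.56). On the NK or ILC1 side, over the 3 starts, Il18r1 stood at 15.4 CPM (7.38 to 28.3, 10 UMIs) in WT and 83.3 CPM (61.0 to 111, 46 UMIs) in ΔTE. On the ILC2 side it was 141 CPM (73.1 to 247, 12 UMIs) and 167 CPM (101 to 261, 19 UMIs), and the intervals overlapped. By start it was 302 CPM in WT and 157 CPM in ΔTE for DN2a (7 UMIs each), and 74.8 CPM (4 UMIs) and 197 CPM (12 UMIs) for DN2b, so that the sum joins opposite directions. The genes that define the class also differed between the genotypes. For DN2a, 6 of 10 tested were at least 2-fold higher in ΔTE (1.10% of all genes) and 0 lower (4.00%). For DN2b, 7 of 10 were at least 2-fold higher (1.74%) and 1, Ccl5, lower (3.64%). Another mixture of cells and more Il18r1 per cell therefore cannot be told apart, either in the class or among the other cells.

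**Figure D4:**
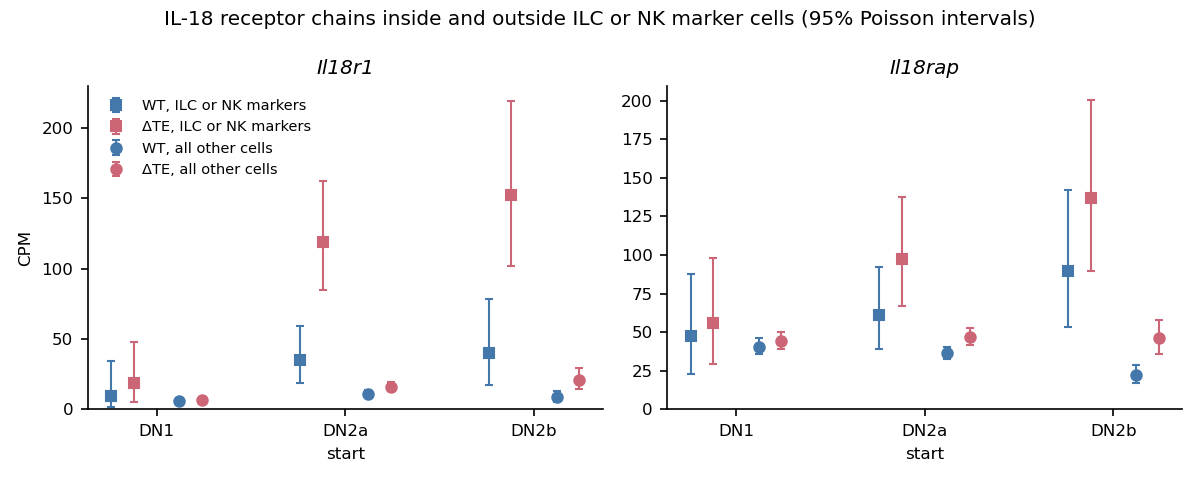
CPM of Il18r1 and Il18rap (vertical axes) in cells with ILC or NK markers (squares) and in all other cells (circles) of WT and ΔTE libraries, by start, with 95% Poisson intervals. Il18r1 reaches 153 CPM in ΔTE cells with ILC or NK markers of the DN2b start, against 39.9 CPM in WT.

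Zbtb16 encodes PLZF, a factor of ILC progenitors, and ΔTE cells with a UMI of it held more Il18r1. Over the 3 ΔTE libraries, Il18r1 was at 30.8 CPM (89 UMIs) in cells with a Zbtb16 UMI and 13.0 CPM (143 UMIs) in cells without one, a log2 ratio of 1.25 (0.85 to 1.64). In the WT libraries it was at 11.2 CPM (23 UMIs) and 9.36 CPM (147 UMIs), a ratio of 0.26 (-0.44 to 0.90). By start, the ΔTE ratios were 0.97 (-0.11 to 1.98), 1.38 (0.86 to 1.90) and 1.20 (0.35 to 2.0) for DN1, DN2a and DN2b, and the WT ratio for DN2b was as large, at 1.24 (-0.35 to 2.57) on 6 and 23 UMIs, so that no difference between the genotypes is read from this. For Il18rap the ΔTE starts went different ways, at 34.2 against 47.1 CPM with and without a Zbtb16 UMI for DN1 (log2 -0.46, -0.98 to 0.026), 65.5 against 45.3 CPM for DN2a (0.53, 0.16 to 0.89) and 73.0 against 52.3 CPM for DN2b (0.48, -0.28 to 1.18). By Bcl11b, Il17rb was higher in ΔTE cells with a Bcl11b UMI of the DN1 start (log2 1.10, 0.47 to 1.68) and the DN2a start (0.49, 0.15 to 0.82), and likewise in WT cells of these starts (0.78, 0.24 to 1.29, and 0.32, 0.017 to 0.62). For DN2b it was not, at 102 against 108 CPM in ΔTE and 80.6 against 73.7 CPM in WT cells with and without one. In ΔTE DN2b cells, Il18r1 was lower in those with a Bcl11b UMI, at 14.9 CPM (6 UMIs) against 41.8 CPM (55 UMIs), a ratio of -1.48 (-2.99 to -0.27), whereas over the 3 ΔTE starts it was -0.47 (-1.23 to 0.21). These 2 genes were added after the rule for named genes was set, and cells without a UMI of a gene may still express it. Cells without one may also be stroma cells, and the ratios were not made without these. In WT DN2a, Il17rb stood at 16.4 CPM (20 UMIs) in cells with stroma markers, against 52.1 CPM in all cells without a Bcl11b UMI.

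Of the 377 cells with a UMI of Il18r1, 40 (10.6%) also held Il18rap, the partner chain, against 2.07% of all 60671 cells. By library this ranged from 0 of 33 cells (WT DN1) to 11 of 55 (ΔTE DN2b). Of the cells with Il18r1, 8 held Il17rb (2.12%, against 2.81% of all cells) and 26 held Il12rb2 (6.90%, against 6.93%). Deeper cells hold more of every gene, and this count was not corrected for depth. Over the 18 wells, on log2(CPM + 2), the genes most like Il18r1 among 11832 with at least 50 UMIs were Mdfic (r = 0.93), Ahr (0.92), a ligand-activated factor with known roles in ILCs, and Ncr1 (0.91), which encodes the NK receptor NKp46. Those most like Il18rap were Emid1 (0.91), Nrgn (0.90) and Lag3 (0.88). For Il17rb they were Lef1 (0.97), Itgae (0.95) and Gata3 (0.95), and for Il12rb2 they included Srl (0.94) and Ffar2 (0.92). Among the receptors, Il18r1 followed Il17rb (0.81) more than Il18rap (0.55) and ran against Il12rb2 (-0.70). These wells share their library by 3 and differ by genotype and start, so that the correlations are descriptions of 6 cultures.

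The other genes of the pathways were taken from lists. Of all genes tested, 0.821%, 1.10% and 1.74% were at least 2-fold higher in ΔTE for DN1, DN2a and DN2b. The shares at least 2-fold lower were 1.69%, 4.00% and 3.64%. Among 12 further receptor chains, 9 or 10 were compared in each start, and 0 were at least 2-fold higher. Il1r1, the IL-1 receptor, was the one that was at least 2-fold lower, for DN2a at -1.11 (-1.57 to -0.67), but the ratio was -0.0091 with no mitochondrial limit and between -1.87 and -0.75 with 1 well left out, the first without the ΔTE well rich in stromal transcripts. Il12rb1, the partner of Il12rb2, had ratios of 0.058 (-0.26 to 0.38), 0.39 (0.11 to 0.66) and 0.72 (0.19 to 1.24) for DN1, DN2a and DN2b. Il1rap, the partner of ST2, had ratios of -0.41, 0.032 and 0.053, and Il17ra, the partner of Il17rb, -0.11, -0.23 and -0.17.

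All 18 signalling genes were compared. For DN1, DN2a and DN2b, 0, 1 and 2 of them were at least 2-fold higher, beside 0.821%, 1.10% and 1.74% of all genes. In no start was any at least 2-fold lower. Irak3, an IRAK family member that dampens signalling, stood at 10.0, 9.51 and 6.23 CPM in WT (60, 86 and 17 UMIs) and at 14.6, 24.7 and 19.2 CPM in ΔTE cells (86, 156 and 33 UMIs). Its ratio was 0.54 (0.050 to 1.04) for DN1, 1.38 (0.99 to 1.77) for DN2a and 1.63 (0.74 to 2.56) for DN2b, and 0.30 for DN2b with the limit of 20% mitochondrial UMIs. The kinase gene Irak4 passed 2-fold for DN2b (1.18, 0.45 to 1.94, on 28 and 40 UMIs), and not with all mitochondrial shares kept (0.22). Stat4, the transducer of IL-12, had ratios of -0.44 (-0.65 to -0.23), -0.69 (-0.88 to -0.50) and -0.25 (-0.61 to 0.10), and in none of the starts was it at least 2-fold lower. Myd88 and Traf6, used by the IL-1 receptor family, had ratios between -0.29 and 0.16 in all starts. The median ratio of the list was 0.0067, -0.19 and 0.055, close to that of all genes.

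Ligands of these receptors were barely present. Il25 had 0 UMIs in all 6 libraries, the ligand list summed to at most 17.2 CPM in any library, and 0 of the 0 to 3 ligand genes compared in each start differed by 2-fold. Of the 9 cytokines that ILCs secrete, 1 to 3 could be compared. Tnf was higher for DN2b, at 5.49 CPM (15 UMIs) in WT and 15.7 CPM (27 UMIs) in ΔTE (log2 1.52, 0.56 to 2.53). Il9 had 0 UMIs in every library, and Il13 had 6 and 8 UMIs for DN2b.

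**Figure D5:**
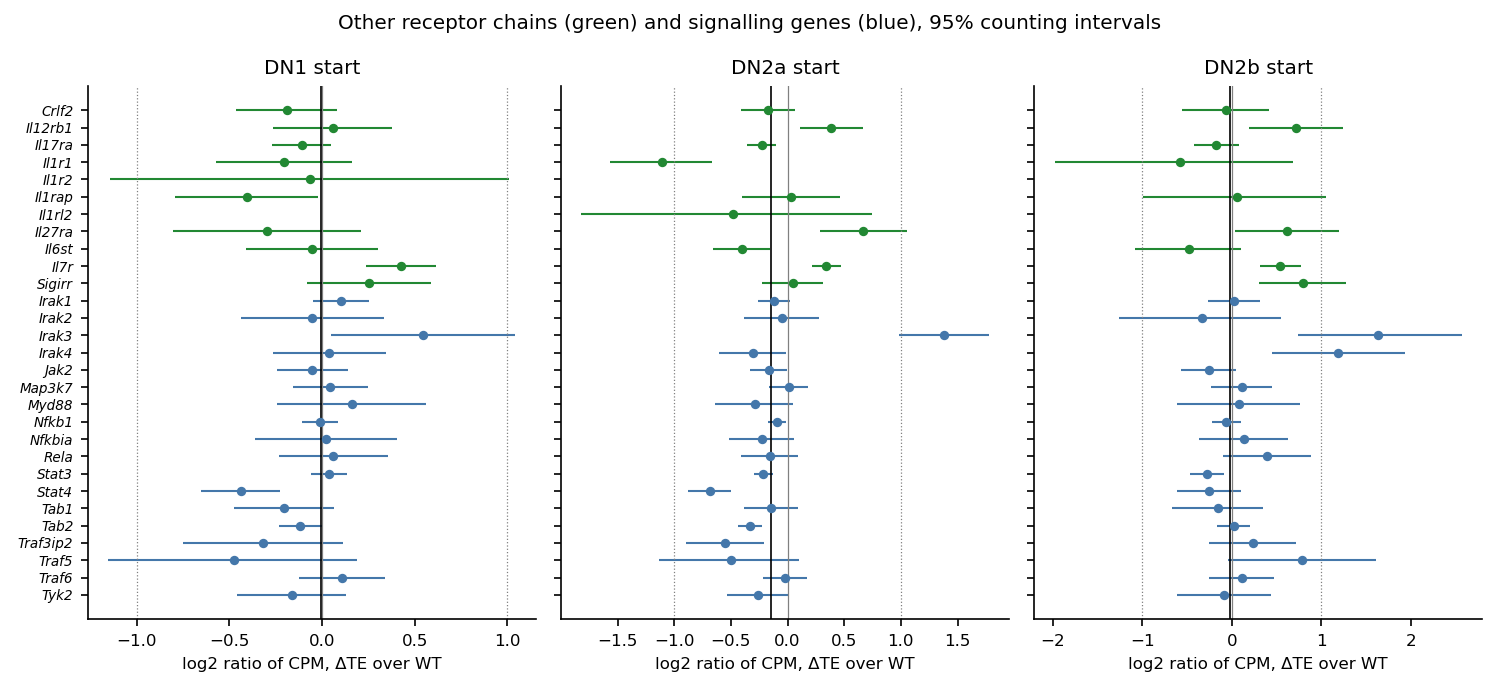
Log2 ratio of CPM in ΔTE over WT (horizontal axes, a separate scale for each start) for the other receptor chains (green) and signalling genes (blue) with at least 20 UMIs. Points are ratios, bars 95% counting intervals, dotted lines 2-fold and the black line the median of all genes tested; Irak3 lies past 2-fold for the DN2a and DN2b starts, at 1.38 and 1.63.

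In GENCODE M21 (GRCm38), the receptor genes of the IL-1 family lie in 1 row on chromosome 1, all on the + strand: Il1rl1 (chr1:40429570-40465415), Il18r1 (chr1:40465552-40500854) and Il18rap (chr1:40515362-40551705). Il1rl1 ends 136 bases before Il18r1 starts, and 14507 bases separate Il18r1 from Il18rap. These adjacent genes had unlike levels, with 20 UMIs of Il1rl1, 402 of Il18r1 and 1326 of Il18rap over all libraries. Of 7 other genes of the locus, 2 or 3 were compared in each start, and Il1r1 was the one that passed 2-fold, lower for DN2a as above. Il12rb2 (chr6:67291318-67376188, - strand) overlaps Serbp1 on the other strand by 6419 bases, and Il17rb (chr14:29996135-30008896, - strand) overlaps Actr8 by 10220 bases. Whether the counts kept strand is not given in the sources used here, so that reads in the overlaps could come from either gene. Serbp1 had ratios of 0.039, -0.18 and -0.050, beside 0.018, -0.15 and -0.36 for Il12rb2. Actr8 had ratios of 0.20, -0.14 and -0.49, beside 0.40, 0.60 and 0.49 for Il17rb. The part of overlapping reads in these values was not tested. Chdh, which starts 126 bases from Il17rb and is read the other way, had ratios of 0.19, 0.0082 and 0.34.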

How the data were processed

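RNA of 6 libraries, 1 for each genotype and start, was measured by sci-RNA-seq3, which barcodes fixed and permeabilized cells or nuclei in successive rounds of wells, and the labels call the molecule nuclear RNA. The authors deposited UMI counts for each gene and barcode, not normalized and before any filter on cells, and these counts were used as given. The aligner and strand setting are not given in the sources used here. The submitters' processing notes list mm9, whereas coordinates here come from GENCODE M21 (GRCm38), in which 27924 of 28048 identifiers matched, and promoters from RefSeq.

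Barcodes with under 200 genes, over 2000 UMIs or over 30% mitochondrial UMIs were dropped, as were genes seen in fewer than 15 cells. No doublet caller was run, and the UMI limit was relied on. Barcodes shared between libraries numbered 0. Intervals are exact at 95%: Poisson for levels, conditional binomial for ratios and Clopper-Pearson for shares (scipy 1.17.1). A count of 0 allows 3 counts. Ratios asked for at least 20 UMIs over 2 libraries. The ratio step was tested on simulated data. TMM factors came from edgeR 4.0.16 (R 4.3.3). Tables were made in Python 3.11.15 with pandas 2.3.3 and numpy 2.4.6, and plots with matplotlib 3.10.9.

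Beside the receptors, genes were named if they were on a pathway list and passed 2-fold in a start, if they were Il1rap, Il17ra, Il12rb1, Stat4 or Bcl11b, or if they were among the 3 most like a receptor over the wells, of which 1 is not reported here. Zbtb16, Myd88, Traf6, Mcpt1, Il9, Il13, Il25, Serbp1, Actr8, Chdh and the markers that lead a class were named outside this rule, after their values were seen. The receptors and lists were chosen with earlier results of these data known. Alternatives changed the limits on cells, the scaling, the wells, the cells compared, the fold and the marker lists, and the ILC or NK list without Nkg7 was added after seeing the data.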

Additional observations from a re-analysis of the deposited data

Results flagged for a closer look

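In barcodes that the filters left out, 37 ratios of ΔTE to WT could be made for the receptors, and the interval lay above 0 for 9 of them and below 0 for 2. These barcodes entered none of the main comparisons above. Those with over 30% mitochondrial UMIs did enter the values given with no mitochondrial limit. With over 30% mitochondrial UMIs, the log2 ratios for the DN2b start were 1.08 (0.12 to 2.13) for Il18r1, 0.80 (0.11 to 1.53) for Il18rap and 0.83 (0.40 to 1.27) for Il17rb, and for the DN2a start 1.41 (0.0069 to 3.31) for Il17rb, on 4 and 105 UMIs. With under 200 genes, Il18r1 had a ratio of 1.39 (0.53 to 2.33) for DN2b, and Il17rb of 0.50, 0.37 and 0.72 for DN1, DN2a and DN2b. With over 2000 UMIs, Il18rap had a ratio of 3.12 (0.51 to 6.51) for DN2b, on 2 and 5 UMIs. The 2 in the other direction were Il18rap for DN1 at -0.79 (-1.23 to -0.36) and Il12rb2 for DN2a at -0.34 (-0.53 to -0.15), both with under 200 genes.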

How the results depend on the processing

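No paired analysis was possible within a start, because each genotype and start was 1 library and the labels carry no replicate numbers, and pairing the genotypes over the 3 starts was not run. Of 120 alternative values of the 12 genotype ratios of the receptors, 109 stayed within the interval of the reported value, and so did all 72 values with 1 well left out. With a limit of 20% mitochondrial UMIs, the log2 ratio was 0.72 for Il17rb in DN1, 0.65 for Il18rap in DN2a and 1.04 for Il18r1 in DN2b, and 0.69 for Il18rap in DN2b, so that 1 receptor gene, Il18r1, was 2-fold higher there (2.64% of all genes). With no such limit, the DN2a ratios were 0.15 for Il18rap, 0.36 for Il17rb and -0.32 for Il12rb2. In UMIs per cell they were 0.65, 0.83 and 0.085, the last a change of sign, which Il17ra shared (0.0037). Il12rb2 in DN2a was at -0.021 without mitochondrial UMIs in the total and -0.013 under TMM. A fold of 1.5 gave 2 higher genes in DN2a (2.62% of all genes), and a minimum of 10 UMIs gave 1 lower gene there, Il1rl1 (5.20%). The ratio of cells with ILC or NK markers to others was 3.25 for Il18r1, 1.55 for Il18rap and -0.45 for Il12rb2 with 3 marker UMIs, and 1.96, 0.68 and 0.037, with 0.043 for Il17rb, with 1. Without Nkg7 it was 3.75, 1.67 and -0.46. The causes were not tested. The WT DN2a library lost 2.59% of its cells to the mitochondrial limit, against 26.8% to 56.6% in the others. Depth limits Il1rl1 (20 UMIs) and Il18r1 in DN2b (29 and 61 UMIs).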
